A study of Mus musculus with 6 samples.

Results

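Genes that move, absorb or esterify sterols were followed in small intestinal organoids given low-density lipoprotein (LDL): Npc1l1, Abcg5, Abcg8, Abca1, Abcg1, Apoe, Lpcat3, Soat1 and Soat2. The genes were chosen by name, with earlier results of these data known. All 9 of 9 were found among the 55416 genes of the table through their GENCODE symbols. Crypts of the duodenum and jejunum from 3 C57BL/6 mice (C57BL/6J in the study), each with a WT genotype label, were grown as organoids for 5 days with 50 μg/ml LDL or with PBS as the control, which gave 3 LDL-treated and 3 PBS-treated RNA-Seq libraries. Each mouse supplied 1 library to each treatment. Neither the age nor the sex of the mice is stated in the labels, and the cultures hold epithelium in Matrigel without the tissue around a crypt. The animal identifier of mouse 3 carries another prefix than those of mice 1 and 2. Values without mouse 3 are given for Npc1l1, Abcg1 and Soat1, and otherwise as counts of calls only.

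Cells keep free cholesterol low by pumping it out, by storing it as ester and by taking up less. Npc1l1 is the sterol importer of the enterocyte brush border, and Abcg5 and Abcg8 pair into the transporter that returns sterols from the enterocyte to the gut lumen. Abca1 and Abcg1 pass cholesterol to lipoproteins, Apoe is an apolipoprotein that accepts it, Lpcat3 builds polyunsaturated phospholipids, and the acyltransferases Soat1 and Soat2 make cholesteryl ester. The liver X receptors, nuclear receptors that are switched on by oxysterols, are known to induce Abca1, Abcg1, Abcg5, Abcg8, Apoe and Lpcat3 in several tissues.

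Values are normalized counts, that is, reads per gene divided by 1 size factor for each library, and log2 fold changes were fitted on log2(normalized count + 1). Between 22061545 and 31073360 reads lay on genes. The LDL-treated library of mouse 1 stood apart, with 7.62% of its reads on the ribosomal RNA gene Rn18s-rs5 and reads on 35781 genes, against 29285 to 32751 genes in the other libraries. Markers of epithelium were abundant, with a summed normalized count over 8 genes of 98467 to 130540 with LDL and 88060 to 91866 with PBS. Macrophages also express Apoe, Abca1 and Abcg1. The sum over 12 macrophage and immune markers was 770, 358 and 648 with LDL and 397, 293 and 386 with PBS in mice 1, 2 and 3. It was far below the epithelial sum but higher with LDL in each mouse. Of the 12, 6 passed the filter on low values, 5 of them with a positive log2 fold change, and 2 were called higher (Cd14 and Mrc1). C1qb was at 0 in all LDL-treated libraries and at 0 or 0.814 in the PBS-treated ones. Adgre1 was at 6.10, 0 and 2.51 with LDL and at 0 in all PBS-treated libraries. Each sum was above the Apoe and Abcg1 counts of its library, and the part of such cells in them was not tested. Stromal markers summed to 101 to 165 with LDL and 167 to 193 with PBS over 10 genes (3 tested, none called), and endothelial markers to 84.6 to 134 with LDL and 92.0 to 130 with PBS over 6 genes (3 tested, none called). In bulk RNA, fewer cells of a type and less RNA per cell cannot be told apart.

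The sterol importer was lower with LDL, and no exporter was called. Npc1l1 was called lower, and none of the other 8 genes was called in either direction by limma with the mouse as a block (a call needs an adjusted p under 0.05 and more than 1.5-fold in either direction). Against this 1 gene of 9, 3.46% of the 18459 genes tested were called lower and 9.14% were called either way. None of the 9 was called higher, against 5.68% of genes tested. The only genes with a positive log2 fold change, Abca1 and Lpcat3, had unadjusted p-values of 0.813 and 0.568 from limma. Of the uncalled genes, Soat2 and Abcg1 had the smallest unadjusted p-values from limma, 0.0119 and 0.050. DESeq2 and edgeR with the same block, run on the reads recovered from the normalized counts, likewise called none of the 9 higher and called Npc1l1 alone lower. The median log2 fold change of the 9 genes was -0.24, beside -0.02 over all genes tested. Abcg1, Abcg5, Apoe, Npc1l1 and Soat2 were lower with LDL in each of the 3 mice, as were 26.8% of all genes tested. Without the mouse as a block no member was called, where 0.878% of genes tested were called higher, 0.395% lower and 1.27% either way.

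**Figure D1:**
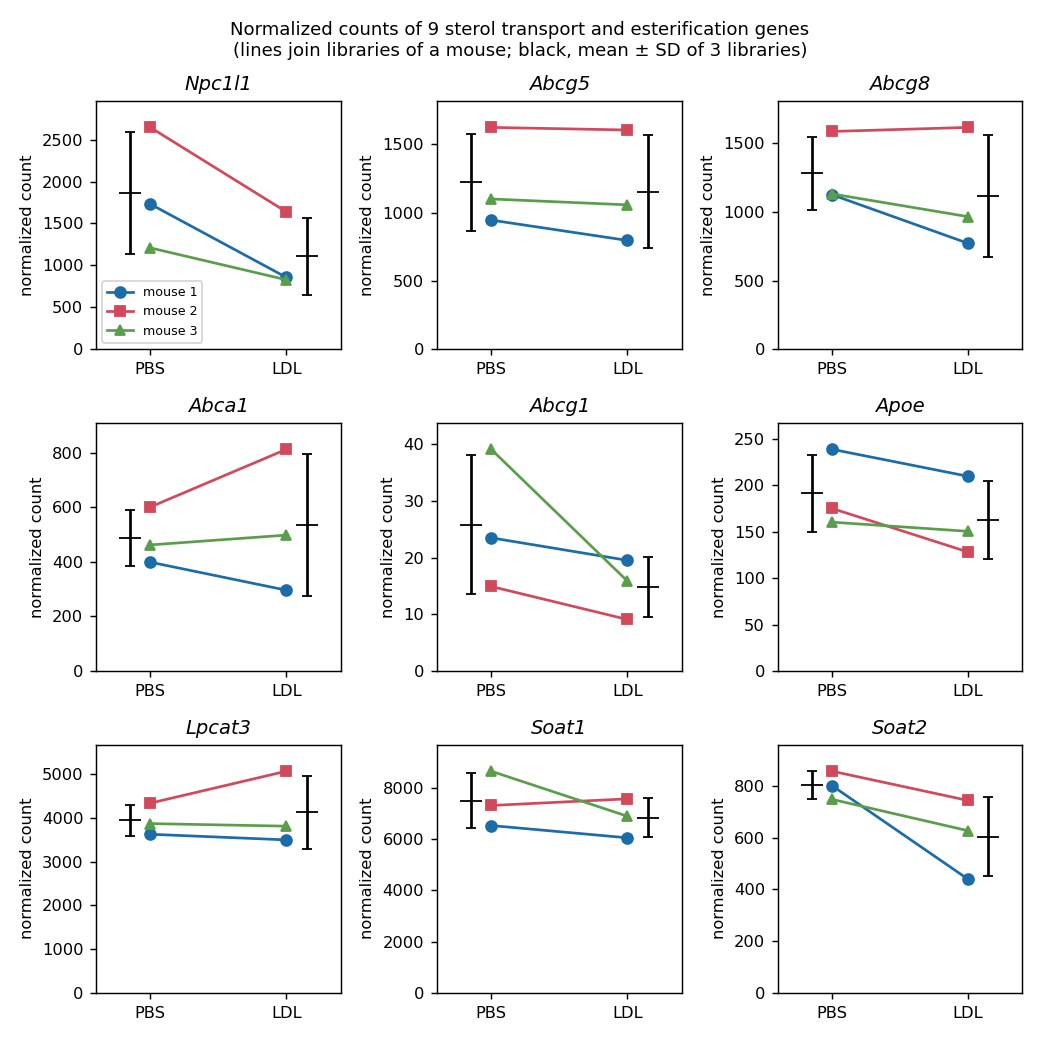
Normalized count (vertical axis, from 0) of each of the 9 genes in PBS- and LDL-treated organoids. Colored lines join the libraries of a mouse, and black bars give the mean ± SD of 3 libraries; the Npc1l1 line slopes down in every mouse, and mouse 2 has the highest Npc1l1, Abcg5, Abcg8 and Abca1 under both treatments.

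Npc1l1 lies on chromosome 11 of GRCm39 from 6161013 to 6180242. Its normalized counts were 1731, 2647 and 1209 in the PBS-treated organoids of mice 1, 2 and 3, and 856, 1639 and 828 in the LDL-treated organoids of the same mice. Each LDL-treated library was below its PBS-treated partner, but the groups overlapped because both libraries of mouse 2 were high. The mean went from 1862 ± 728 to 1108 ± 460 (SD, n = 3), and within a mouse the level was lower by 50.5%, 38.1% and 31.5%. The log2 fold change was -0.75 (standard error 0.10), with a 95% interval of -0.99 to -0.52 (limma with the mouse block, adjusted p = 0.00329). Without the block the standard error of the change was 0.34 (limma, adjusted p = 0.269). The gene was called with any mouse left out, with log2 fold changes of -0.62 without mouse 1, -0.78 without mouse 2 and -0.85 without mouse 3. The adjusted p-values of these fits were 0.00547, 1.07e-05 and 0.0425 (limma with the mouse block), so the call without mouse 3 was close to the threshold.
Npc1l1 is a gene of absorptive cells, and enterocyte markers moved in both directions. Of 12 such markers, 3 were called higher (Alpi, Fabp2 and Krt20) and 3 lower (Lct and Slc15a1 among them), with a median log2 fold change of -0.26. Their summed normalized count was 53466, 107630 and 57696 with LDL and 63734, 107920 and 61487 with PBS in mice 1, 2 and 3, so that mouse 2 was high in enterocyte markers as it was in Npc1l1. Of 10 markers of stem and Paneth cells, 2 were called higher and 4 lower. Their sum was 21277, 30574 and 26556 with LDL and 38894, 29312 and 52782 with PBS in mice 1, 2 and 3. Without the block 1 call among the enterocyte markers held, and none among those of stem and Paneth cells. Of all genes tested, 5.68% were called higher and 3.46% lower with the block. The part of the cell makeup in the Npc1l1 difference was not tested.

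Abcg5 and Abcg8 are neighbors on chromosome 17 that are read in opposite directions, Abcg5 from 84964851 to 84990494 on the minus strand and Abcg8 from 84983730 to 85007765 on the plus strand of GRCm39. Their start regions are shown because the levels of these neighbors moved together over the libraries. In the RefSeq promoter table (GRCm38.p6), which holds 250 bases before and 50 after each start, their starts are 110 bases apart and the windows share 209 bases. Abcg5 is at chr17:84682962-84683261 (minus strand), and the Abcg8 window nearest to it, 1 of those listed for this gene, is at chr17:84682871-84683170 (plus strand). Npc1l1, at chr11:6230196-6230495 (minus strand), is set beside them as the member that was lower. Capitals mark the CCAAT box, the TATAAA box and the hexamer AGGTCA on either strand, and each window is written 5′ to 3′ on the strand of its gene.
Abcg5: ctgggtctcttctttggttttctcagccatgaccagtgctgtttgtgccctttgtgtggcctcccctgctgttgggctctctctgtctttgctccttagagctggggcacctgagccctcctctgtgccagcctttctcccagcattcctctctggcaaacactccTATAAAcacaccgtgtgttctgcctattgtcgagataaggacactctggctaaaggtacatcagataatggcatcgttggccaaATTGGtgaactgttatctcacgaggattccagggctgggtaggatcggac
Abcg8: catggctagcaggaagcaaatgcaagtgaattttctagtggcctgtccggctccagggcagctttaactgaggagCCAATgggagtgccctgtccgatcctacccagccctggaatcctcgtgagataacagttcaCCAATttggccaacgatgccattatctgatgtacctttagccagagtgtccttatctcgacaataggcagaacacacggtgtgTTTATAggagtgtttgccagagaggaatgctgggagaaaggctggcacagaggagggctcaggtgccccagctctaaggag
Npc1l1: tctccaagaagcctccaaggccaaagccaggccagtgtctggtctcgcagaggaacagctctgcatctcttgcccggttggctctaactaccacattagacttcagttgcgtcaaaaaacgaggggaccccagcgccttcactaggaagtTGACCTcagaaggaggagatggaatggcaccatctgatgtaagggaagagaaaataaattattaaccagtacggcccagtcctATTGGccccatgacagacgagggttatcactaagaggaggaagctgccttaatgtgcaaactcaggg
The TATAAA of the Abcg5 window and the TTTATA of the Abcg8 window are the same bases, at 84683090 to 84683095. The CCAAT box of Abcg5 and the second of Abcg8 are also the same bases, at 84683007 to 84683011. The first CCAAT box of Abcg8, at 84682946 to 84682950, lies outside the Abcg5 window. In the counts below, shared bases count in both windows. Windows were listed for 7 of the 9 members (10 windows). Searched on both strands, TATAAA was in 4 of the 10 windows (13.6% of all 32851 windows), CCAAT in 5 (37.4%), GGGCGG in 3 (35.7%), CACGTG in 1, that of Abca1 (7.15%), and the nuclear receptor hexamer AGGTCA in 1, that of Npc1l1 (16.3%). The liver X receptor repeat (AGGTCA hexamers spaced by 4 bases), the PPAR repeat (the same hexamers spaced by 1 base) and the sterol response element TCACCCCAC were in none of the 10, and in 0.0152%, 0.0396% and 0.551% of all windows. AGGTCA is also part of both repeats. Only exact copies of the repeats and of the sterol response element were searched, and imperfect copies were not. As exact copies are rare in all windows, finding none in 10 says little. These matches describe letters in a window and not binding.

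Abcg5 had normalized counts of 945, 1624 and 1100 with PBS and 796, 1605 and 1057 with LDL in mice 1, 2 and 3. Abcg8 had 1125, 1586 and 1131 with PBS and 771, 1615 and 965 with LDL. Both genes were highest in mouse 2 under either treatment, and for both the treatments overlapped. The log2 fold change of Abcg5 was -0.11 with a 95% interval of -0.30 to 0.08 (limma with the mouse block, adjusted p = 0.441). That of Abcg8 was -0.25 with an interval of -0.51 to 0.01 (limma with the mouse block, adjusted p = 0.183), and it was -0.10 without mouse 1. Without mouse 2 the log2 fold change of Abcg8 was -0.39, past the adjusted p threshold but under 1.5-fold (limma with the mouse block, adjusted p = 0.00461). Over all 3 mice, the intervals of both genes exclude a rise or a fall of 1.5-fold. Per kilobase of exon, the ratio of Abcg5 to Abcg8 was between 0.912 and 1.19 over the 6 libraries. The genes share 108 bases of exon on opposite strands, and the strand setting of the counting is not stated.
Set against its exporters, Npc1l1 was lower with LDL in every mouse. Per kilobase of exon, the ratio of Npc1l1 to Abcg5 was 1.42, 1.27 and 0.854 with PBS and 0.836, 0.794 and 0.609 with LDL in mice 1, 2 and 3. On the log2 scale this ratio differed by -0.64 ± 0.14 (SD, n = 3 mice; exact sign-flip permutation test, two-sided, p = 0.25, the smallest that 3 pairs allow). That of Npc1l1 to Abcg8 was 1.30, 1.41 and 0.901 with PBS and 0.937, 0.856 and 0.723 with LDL. It differed by -0.50 ± 0.20 (SD, n = 3 mice; exact sign-flip permutation test, two-sided, p = 0.25).

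**Figure D2:**
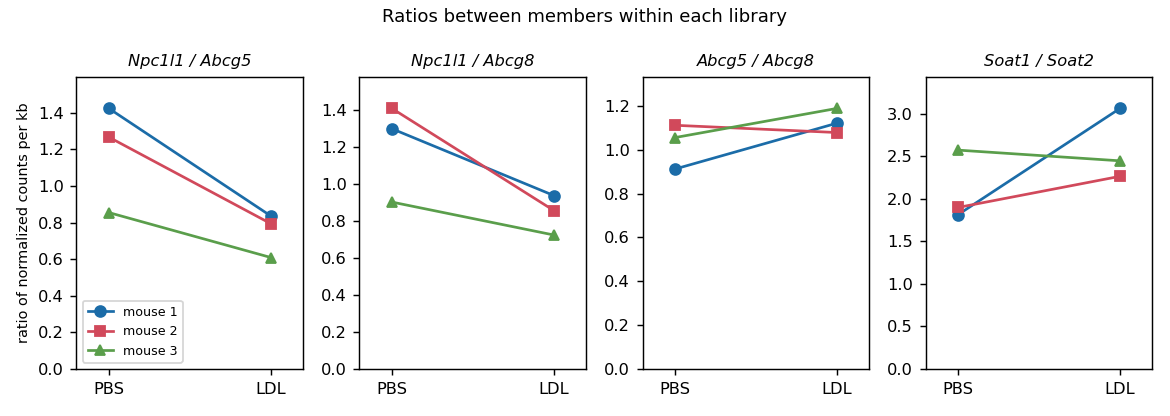
Ratio of normalized counts per kilobase of exon between pairs of genes in each library (vertical axes from 0), with lines joining the PBS- and LDL-treated libraries of a mouse. Npc1l1 relative to Abcg5 and to Abcg8 is lower with LDL in all 3 mice, and Abcg5 relative to Abcg8 stays between 0.912 and 1.19.

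Abca1, the exporter that loads apolipoproteins with cholesterol, lies on chromosome 4 from 53030787 to 53159900. Its normalized counts were 399, 601 and 462 with PBS and 296, 813 and 498 with LDL, lower in mouse 1 and higher in mice 2 and 3. The log2 fold change was 0.04 with a 95% interval of -0.32 to 0.40 (limma with the mouse block, adjusted p = 0.907), and it was -0.16 without mouse 2 and 0.27 without mouse 1. Abcg1, which passes cholesterol to high-density lipoprotein, had few reads: 23, 12 and 48 reads lay on it in the PBS-treated libraries and 16, 10 and 19 in the LDL-treated ones. Its normalized counts were 23.5, 14.9 and 39.1 with PBS and 19.5, 9.09 and 15.9 with LDL, a log2 fold change of -0.72 with a wide interval of -1.44 to -0.00015 (limma with the mouse block, adjusted p = 0.166). Abcg1 was not called, and its treatments overlapped. Its log2 fold change was -0.95 without mouse 1, -0.75 without mouse 2 and -0.46 without mouse 3.
Apoe, on chromosome 7 from 19430034 to 19434947, had normalized counts of 239, 175 and 160 with PBS and 210, 128 and 151 with LDL. Mouse 1 had the highest value under both treatments, and the treatments overlapped. The log2 fold change was -0.24 with an interval of -0.55 to 0.07 (limma with the mouse block, adjusted p = 0.275). Lpcat3, on chromosome 6 from 124639765 to 124684440, had 3627, 4338 and 3870 with PBS and 3498, 5069 and 3812 with LDL. Its log2 fold change was 0.05 with an interval of -0.14 to 0.25 (limma with the mouse block, adjusted p = 0.741), which leaves no room for a change of 1.5-fold. Lpcat3 shares 4277 bases of exon with Emg1 on the opposite strand, and Emg1 had a log2 fold change of -0.03.

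Soat1, the acyltransferase found in most tissues, and Soat2, the enzyme of enterocytes and liver, both had a negative log2 fold change that was not called. Soat1 lies on chromosome 1 from 156252095 to 156303864 and had normalized counts of 6524, 7305 and 8643 with PBS and 6046, 7564 and 6888 with LDL. Its log2 fold change was -0.13 with an interval of -0.35 to 0.09 (limma with the mouse block, adjusted p = 0.409), and it was -0.22 without mouse 2 (adjusted p = 0.0476, under 1.5-fold) and -0.03 without mouse 3. Soat2, on chromosome 15 from 102058797 to 102071904, had 800, 856 and 747 with PBS and 439, 743 and 626 with LDL. All LDL-treated libraries were below all PBS-treated ones, as for 12.3% of genes tested, with that of mouse 1 the lowest. The log2 fold change of Soat2 was -0.44 with an interval of -0.75 to -0.13, under the 1.5-fold threshold and not called (limma with the mouse block, adjusted p = 0.0652). It was -0.23 without mouse 1, whose LDL-treated library held the ribosomal reads, and -0.56 without mouse 2, past the adjusted p threshold but under 1.5-fold (limma with the mouse block, adjusted p = 0.00162). Per kilobase of exon the ratio of Soat1 to Soat2 was 1.81, 1.90 and 2.57 with PBS and 3.06, 2.27 and 2.45 with LDL, a log2 difference of 0.31 ± 0.42 (SD, n = 3 mice; exact sign-flip permutation test, two-sided, p = 0.5).

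**Figure D3:**
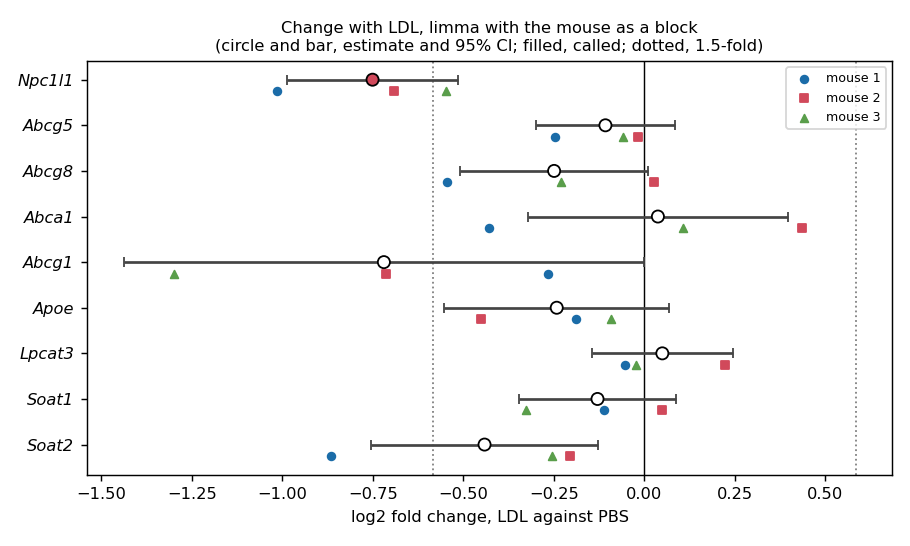
Log2 fold change of each gene, LDL against PBS, from limma with the mouse as a block (circles, with bars for the 95% interval), and the log2 ratio in each mouse (small symbols). Only the Npc1l1 circle is filled, for a called change; dotted lines mark 1.5-fold in either direction.

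Levels between genes were compared per kilobase of exon (mean ± SD, n = 3 in each treatment). With PBS the order was Soat1 at 701 ± 100 normalized counts per kilobase, Lpcat3 at 496 ± 45.4, Npc1l1 at 408 ± 159, Abcg5 at 345 ± 100, Soat2 at 337 ± 22.9, Abcg8 at 333 ± 68.6, Apoe at 47.3 ± 10.3, Abca1 at 39.7 ± 8.43 and Abcg1 at 3.35 ± 1.59. Neighbors from Lpcat3 to Abcg8 in this order differed by less than their spread, as did Apoe and Abca1. With LDL, Npc1l1 stood at 243 ± 101 per kilobase, below Abcg5 at 325 ± 116, Abcg8 at 290 ± 115 and Soat2 at 254 ± 64.5, and these 4 levels overlapped. On this length the enterocyte sterol genes lay above Abca1, Abcg1 and Apoe in every library. The lowest per-kilobase value of Npc1l1, Abcg5, Abcg8 and Soat2 was 181, and the highest of the other 3 was 66.2. The length is the union of all annotated exons of a gene, 4048 bases for Apoe, and can exceed that of a single transcript. Lengths of single transcripts were not used, so the order and the gap hold for this length only.
Levels of several members varied together across libraries, and mouse 2 was high for most of them. Pearson's r over the 6 libraries, which pair up by mouse, was 0.95 between Abcg5 and Abcg8, 0.95 between Abca1 and Lpcat3, 0.94 between Abca1 and Abcg5 and 0.81 between Npc1l1 and Soat2. Among 13632 genes averaging 50 normalized counts or more, those most like Npc1l1 were Heatr5b, Tmem175 and Malrd1 (r = 0.993, 0.992 and 0.989), and those most like Abca1 were Tkfc, H2bc26 and Ppara (r = 0.997, 0.991 and 0.990). Those most like Abcg5 were Mcfd2 and Acbd4 (r = 0.999 and 0.996), and those most like Abcg8 were Fmo1, 1600014C10Rik and Pak1ip1 (r = 0.996, 0.996 and 0.995). Soat2 was most like Ppp2r5a, Coq9 and Nhlrc1, Soat1 most like Aggf1, Zfp62 and Sharpin, Lpcat3 most like Sec14l2, Mmp24os1 and Psmb7, and Apoe most like E130307A14Rik, Bicral and Cxxc4. With 6 points such values are common: 100 genes had an r over 0.95 with Npc1l1 and 414 with Soat2.

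The wider pathway was read from gene lists written with earlier results of these data known. Their counts and medians therefore describe these data and are no independent support. Of all genes tested, 5.68% were called higher and 3.46% lower. Over all these lists, 18 genes were called higher and 7 lower. Leaving out mouse 1, 2 or 3 gave 15, 20 and 7 higher and 4, 12 and 2 lower. Of 16 liver X receptor genes, partners and other responsive genes, 14 could be tested, and 2 were called higher and 4 lower, with a median log2 fold change of -0.34. Nr1h3, which encodes liver X receptor alpha, had normalized counts of 572, 698 and 624 with PBS and 315, 475 and 348 with LDL, which did not overlap, a log2 fold change of -0.75 (limma with the mouse block, adjusted p = 0.00329). Nr1h2, the beta receptor, was not called (log2 fold change -0.13). Mylip, a ubiquitin ligase gene that liver X receptors induce, had 137, 62.1 and 85.5 with PBS and 28.1, 19.1 and 30.1 with LDL, a log2 fold change of -1.79 (limma with the mouse block, adjusted p = 0.00273). The desaturase genes Scd1 and Scd2 had log2 fold changes of -1.29 and -0.68 (limma with the mouse block, adjusted p = 0.00281 and 0.0109). Srebf1, which drives fatty acid synthesis, had a log2 fold change of -0.50 that was under the 1.5-fold threshold (limma with the mouse block, adjusted p = 0.0379). Arl4c and Nr1h4, the bile acid receptor gene, were called higher with log2 fold changes of 1.98 and 0.80. None of these 6 calls held without the block, where the adjusted p from limma was 0.0508 to 0.131.
Of 17 other membrane-bound acyltransferases and ester hydrolases, 15 were tested, and 7 were called higher and none lower, with a median log2 fold change of 0.68. The shares over all genes tested were 5.68% higher and 3.46% lower. Nceh1, a hydrolase that frees cholesterol from its ester, had normalized counts of 456, 490 and 574 with PBS and 1073, 1133 and 1025 with LDL, which did not overlap. Its log2 fold change was 1.09 (limma with the mouse block, adjusted p = 0.000743, and 0.00828 without it). Lipa, the lysosomal lipase that opens the ester carried in by LDL, had a log2 fold change of 1.71 (limma with the mouse block, adjusted p = 0.000114, and 0.00137 without it). Mboat1 and Lpcat4, acyltransferases of phospholipids, had log2 fold changes of 2.21 and 1.08 (limma with the mouse block, adjusted p = 0.000131 and 0.00193), and the call of Mboat1 held without the block (adjusted p = 0.0473). The other 3 called genes, Ces1f, Dgat2 and Lipe, are named here after their values were seen and had log2 fold changes of 0.80, 0.78 and 0.68. Without the block 3 of the 7 calls held, and those of Lpcat4, Ces1f, Dgat2 and Lipe did not (limma, adjusted p = 0.104, 0.134, 0.0769 and 0.259). Dgat1, the triglyceride enzyme most like the Soat enzymes, was not called (log2 fold change -0.04). Nceh1 and Lipa, which break sterol ester, were called higher, and Soat1 and Soat2, which make it, were not called. The list was written with results known, and a difference between these genes was not tested. Of the other hydrolases in the list, Ces1d and Aadac were not called (log2 fold changes -0.82 and 0.33), and Cel did not pass the filter on low values.
Among 26 sterol carriers, surface receptors and apolipoproteins, 24 were tested, and 6 were called higher and 2 lower, with a median of -0.02. The shares over all genes tested were 5.68% higher and 3.46% lower. Cd36, Anxa2, Apoa4 and Mttp had the largest rises, with log2 fold changes of 1.95, 1.38, 1.18 and 0.95 (limma with the mouse block, adjusted p = 0.00333, 0.0173, 0.000376 and 0.00075). No gene of this list was called without the block. Stard5 and Npc2, which carry sterol in the cytosol and in the lysosome, fell by 0.69 and 0.61 on the log2 scale (limma with the mouse block, adjusted p = 0.00777 and 0.00527). Scarb1, a lipoprotein receptor, had a log2 fold change of -0.36 (limma with the mouse block, adjusted p = 0.0595). Of 16 genes of SREBP2 control and sterol synthesis none was called (0 in either direction; 3 had an adjusted p under 0.05 from limma with the block and a change under 1.5-fold), with a median of 0.02.

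**Figure D4:**
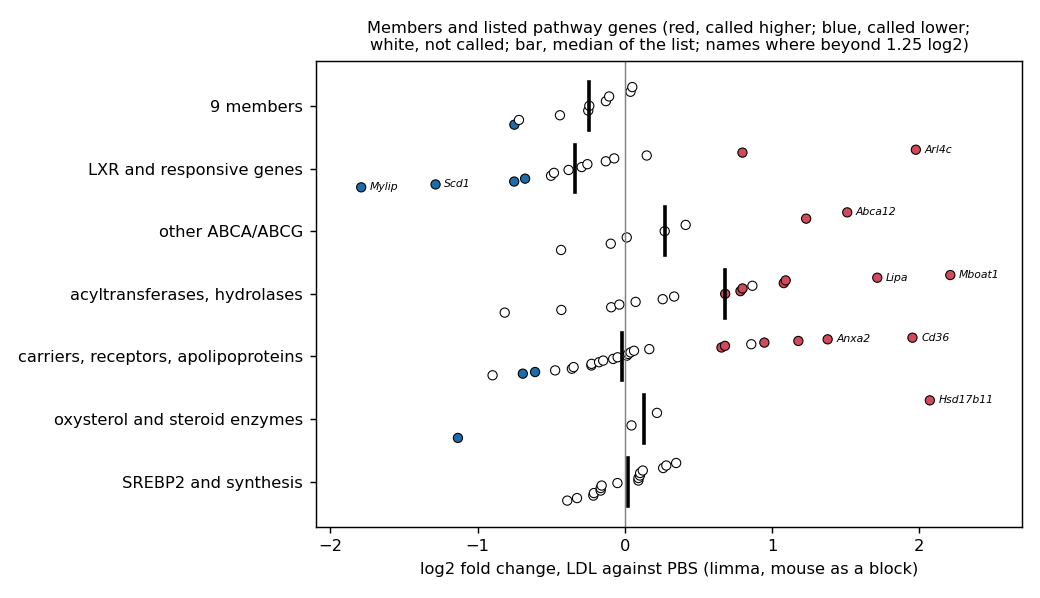
Log2 fold change, LDL against PBS, of the 9 members and of each tested gene in 6 lists of related genes, from limma with the mouse as a block; black bars are list medians. Red points were called higher and blue points lower, and the row of acyltransferases and hydrolases holds 7 red points and no blue ones.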

How the data were processed

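The 6 RNA-Seq libraries were assigned to treatment and mouse from their titles; libraries of the same number share an animal identifier in the labels. With treatment means removed, the 2 libraries of each mouse deviated together (r = 0.484, 0.421 and 0.462 over genes), and the mouse was therefore a block. The deposited signal values are normalized counts: the authors aligned reads to GRCm39 with STAR, counted them per gene with featureCounts and divided them by 1 size factor per library (DESeq2). Whole reads were recovered for 100% of values (within 0.01 of a whole number); with the block, edgeR called 1171 genes higher and 588 lower on those reads, and DESeq2 981 and 511. In total, 54749 identifiers were found in GENCODE M39 and 667 were not. A count of 0 allows up to 3 reads, which covers counting error alone.

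Genes with a mean of at least 10 were tested on log2(normalized count + 1) with limma 3.58.1 (eBayes with a trend, two-sided, Benjamini-Hochberg over 18459 genes) in R 4.3.3; DESeq2 1.42.0 and edgeR 4.0.16 were alternatives. The study does not state a pairing term, so the fit without the block was also run. Other alternatives were pseudocounts of 0.5 and 5, filters, scalings, call rules, and each mouse or library left out. The fits were tested on simulated data. The members and lists were chosen with earlier results of these data known. Named were all members, up to 4 called genes per list and direction, well-known partners and the 3 genes most like each member; a few genes under this rule are not reported here. Length was the union of GENCODE exons. Promoters are from RefSeq (GRCm38.p6).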

Additional observations from a re-analysis of the deposited data

How the results depend on the processing

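The log2 fold change of Npc1l1 was negative under all 19 alternatives run (-1.07 to -0.46). It was called under all 8 that kept the block and all mice, with adjusted p-values from 6.45e-07 (DESeq2) to 0.00458 (limma). It was also called with each mouse left out, with an adjusted p of 0.0425 without mouse 3 (limma with the block). Without the replicate block no member was called lower (0, and also 0 with DESeq2 without the block, where Npc1l1 had an adjusted p of 0.153). With no block and 1 library left out, 0 to 2 members were called lower, and the 2 were Npc1l1 and Soat2 on leaving out LDL of mouse 2. At an adjusted p under 0.001, 0 were. No alternative called a member higher. Leaving out mouse 2 or mouse 1, Abca1 was -0.16 and 0.271, and Lpcat3 was -0.037 and 0.10. With no block, Abca1 turned to -0.32 and Lpcat3 to -0.11 on leaving out LDL of mouse 2, and to -0.096 and -0.0085 on leaving out PBS of mouse 1. Abcg5 turned to 0.13 on leaving out LDL of mouse 1 and to 0.12 on leaving out PBS of mouse 2. The cause was not tested.

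Of the listed genes, 18 were called higher and 7 lower, beside 5.68% and 3.46% of all genes tested. The number tested is given with each list. Without the replicate block 4 and 1 were, beside 0.878% and 0.395% of all genes tested. Leaving out mouse 1, 2 or 3 gave 15, 20 and 7 higher and 4, 12 and 2 lower. With no block and 1 library left out, 2 to 12 were higher and 0 to 10 lower. With any fold change 14 were lower, and at an adjusted p under 0.001, 7 were higher and 0 lower. Over all genes 1048 were called higher and 639 lower, and 162 and 73 without the replicate block. Leaving out mouse 1, 2 or 3 gave 719, 1634 and 277 higher and 326, 1333 and 82 lower. With no block, leaving out LDL of mouse 1, 2 or 3 gave 99, 1194 and 18 higher and 44, 1137 and 2 lower, and leaving out PBS gave 27, 55 and 38 higher and 3, 9 and 7 lower. DESeq2 without the block called 348 lower, any fold change gave 1375 lower, and an adjusted p under 0.001 gave 188 and 39. Fits with no block and 2 libraries in a treatment assume the same spread in both. Scaling moved the median of all genes by less than 0.1 (from -0.0373 to 0.00603). Abcg1 had 10 to 48 reads a library, the fewest of the members, and the part of depth in its missing call was not tested.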

Other observations

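Other transporters of the same families and a list of oxysterol-related and other steroid enzymes were also measured. Of 13 other ABCA and ABCG genes, 7 passed the filter on low values and 2 were called higher, Abca12 and Abca8b, with log2 fold changes of 1.51 and 1.23 (limma with the mouse block, adjusted p = 0.0248 and 0.0422, and 0.325 and 0.156 without it). Abca12, known as a lipid transporter of the skin, had normalized counts of 15.3, 2.49 and 7.33 with PBS and 61.0, 10.003 and 15.1 with LDL in mice 1, 2 and 3, higher with LDL in each mouse and with overlapping treatments. None of the 7 was called lower, with a median log2 fold change of 0.27. The shares over all genes tested were 5.68% higher and 3.46% lower.

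Of the 9 listed enzymes, 4 passed the filter, since Ch25h, Cyp46a1, Cyp7b1, Cyp11a1 and Hsd3b7 had a mean normalized count under 10. Cyp39a1, an oxysterol hydroxylase, was called lower, with 250, 215 and 177 with PBS and 113, 88.2 and 88.6 with LDL, a log2 fold change of -1.13 (limma with the mouse block, adjusted p = 0.00224, and 0.0353 without it). Hsd17b11, a steroid dehydrogenase of lipid droplets that is not known as an oxysterol enzyme, was called higher, with 1047, 1071 and 883 with PBS and 3738, 4900 and 4020 with LDL. Its log2 fold change was 2.07 (limma with the mouse block, adjusted p = 2.67e-05, and 0.000897 without it), and for neither gene did the treatments overlap.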
